A study of Mus musculus with 6 samples.

Results

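DNA replication and nucleotide synthesis genes were compared between Sertoli cells with and without Pa1. The set held 48 genes, picked by gene symbol from the 28262 genes of the count table, and all 48 were listed there. RNA was sequenced from purified Sertoli cells, the supporting cells of the seminiferous tubule, from 20-day-old C57BL/6 mice. There were 3 control libraries (genotype labelled PA1flox/flox, written Pa1F/F here) and 3 knockout libraries (genotype labelled PA1-/-, written Pa1-/- here). Both groups were untreated and were cultured at 34 °C, in the study's methods with insulin, EGF and transferrin. In the knockout the floxed alleles are deleted by a Cre recombinase under the Amh promoter, which is active in Sertoli cells, so the deletion is aimed at Sertoli cells and not at other cells of the testis. Pa1 itself was not analysed here, and the genotype of each library therefore rests on its label. The study's methods call the samples biological replicates. Neither they nor the labels say whether the 3 libraries of a group came from separate animals, and p-values measure only the spread between these libraries, part of which may be technical.

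A dividing cell copies its genome in S phase, and the set follows that process from start to end. The origin recognition complex (ORC) marks the origins, and CDC6 and CDT1 load the MCM helicase on them. A kinase, CDC45 and the GINS complex then switch the helicase on. Behind the fork, PCNA clamps the polymerases to the template, RPA coats the single-stranded template, and FEN1 and LIG1 process and seal the lagging strand. Ribonucleotide reductase, thymidylate synthase and thymidine kinase make the deoxyribonucleotides, and CAF-1 packs the new DNA into nucleosomes. Mouse Sertoli cells multiply before birth and in the days after it, and they normally leave the cell cycle as they mature before puberty.

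Transcription of many of these genes is known to be controlled by E2F factors at sites near the start. To show where such letters stand, the RefSeq promoter windows (GRCm38.p6, 250 bases before to 50 bases after each start) were searched. A window was given for 40 of the 48 genes and not for Mcm4, Gmnn, Gins1, Gins2, Gins4, Prim2, Rfc2 and Pole. The E2F consensus was taken as TTTCGCGC or TTTGGCGC on either strand (GCGCGAAA or GCGCCAAA when read on the other), and matches may overlap each other. It was found in 10 of the 40 genes (25.0%), against 251 of 27025 genes with a window (0.929%). These 10 were Orc1, Cdt1, Mcm3, Mcm5, Mcm6, Mcm7, Rfc3, Pola1, Pole2 and Lig1. A match was present in 7 of the 32 genes that were higher in the knockout by the test described below and in 3 of the 8 that were not. The CCAAT box (CCAAT or ATTGG) was in 24 of the 40 genes (60.0%) against 41.1% of all genes, and the cell cycle homology region (TTTGAA or TTCAAA) was in 6 (15%) against 20.2%. The stretches around the matches upstream of Mcm5 (chr8:75109310-75109409, plus strand), Mcm6 (chr1:128359762-128359861, minus strand) and Pola1 (chrX:93632240-93632339, minus strand) are shown 5′ to 3′ in the direction of the gene, because these matches lie outside the annotated gene. Capitals mark the consensus, and in Mcm5 and Mcm6 the capitals hold 2 overlapping matches on opposite strands. Mcm6 has a further upstream match (TTTGGCGC, 47 to 40 bases before the start), which lies outside the stretch shown. A match is a description of the letters and does not show binding in these cells.
Mcm5: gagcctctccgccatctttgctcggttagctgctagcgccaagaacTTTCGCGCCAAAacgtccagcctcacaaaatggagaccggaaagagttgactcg
Mcm6: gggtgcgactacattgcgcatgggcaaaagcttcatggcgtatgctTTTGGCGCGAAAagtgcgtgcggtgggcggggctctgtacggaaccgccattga
Pola1: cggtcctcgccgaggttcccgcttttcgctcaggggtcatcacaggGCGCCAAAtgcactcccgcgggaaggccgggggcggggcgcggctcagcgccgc

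The libraries held between 13203757 and 16231443 counts on genes. Control replicates 1 and 3 were close to each other (median absolute log2 difference 0.0770 over 11721 genes, chi-square per degree of freedom 2.23), as were knockout replicates 1 and 2 (0.0716 and 1.67), so both pairs differed by more than sampling noise. Control replicate 2 stood apart from control replicates 1 and 3 (0.123 and 0.130, chi-square per degree of freedom 20.0 and 18.4), and knockout replicate 3 from knockout replicates 1 and 2 (0.195 for both pairs). Neither the labels nor the methods say whether the close libraries share animals. If they did, each group would hold 2 independent samples and the SEs given here for n = 3 would be too small, so a fit with each close pair summed is given as well. Among the Sertoli cell markers, Sox9 and Wt1 were abundant in every library and not called, Dmrt1 rose, and Gata4, Clu and Inhbb fell. Sox9 had 4904, 4786 and 3172 normalized counts in knockout libraries and Wt1 had 6084, 6063 and 4493. Both were lower in knockout replicate 3 than in every other library. Other Sertoli markers that were not called set knockout replicate 3 apart from replicates 1 and 2. Amh had 186, 254 and 179 normalized counts in control and 43.9, 48.4 and 365 in knockout libraries, Rhox8 had 139.5, 279.8 and 136 in control and 33.2, 72.1 and 218 in knockout libraries, and Gata1 had 254, 264 and 242 in control and 565, 585 and 246 in knockout libraries. The summed level of the 16 Sertoli markers was 16412 to 16641 CPM (counts scaled to library size) in control and 10223 to 12837 CPM in knockout libraries. Clu made up 70.3% to 80.1% of it, and without Clu the sums were 3263 to 3441 CPM and 2886 to 3035 CPM. Markers of other cells were also measured. Of the spermatogonia markers, Zbtb16, Stra8, Dmrtb1, Sohlh1, Lin28a and Sall4 had at most 3 counts in every library. Among 7 tested, 1 was called higher (Tex14) and 4 lower (Gfra1, Kit, Ddx4 and Dnd1). For these 4, all knockout libraries lay below all control libraries. All 15 markers summed to 201 to 228 CPM in control and 119 to 208 CPM in knockout libraries. Uchl1, which was not called, made up 83.5% to 94.9% of that sum. Without it the sums were 12.4 to 14.5 CPM in control libraries, 12.7 and 10.6 CPM in knockout replicates 1 and 2 and 19.6 CPM in replicate 3. Id4 and Dazl were highest in knockout replicate 3. Id4 (not called) had 31.2, 27.0 and 128 normalized counts in knockout and 18.1, 9.68 and 15.7 in control libraries. Dazl (not tested) had 8.79, 6.76 and 45.1 in knockout and 7.25, 7.75 and 16.8 in control libraries. The 14 spermatocyte markers summed to 4.35 to 5.27 CPM in control and 4.78 to 9.88 CPM in knockout libraries, where the highest was replicate 3, and Spo11, Piwil1, Ldhc and Majin had at most 3 counts throughout. The 6 peritubular myoid markers summed to 222 to 283 CPM in control and 828 to 1268 CPM in knockout libraries, mostly through Acta2. Without Acta2 they summed to 49.4 to 70.3 CPM in control libraries and to 25.0, 19.9 and 221 CPM in knockout replicates 1, 2 and 3, and Myh11, Cnn1, Des and Actg2 were above the control libraries only in knockout replicate 3. The 5 mesothelial markers summed to 6.72 to 11.6 CPM in control and 30.0 to 38.6 CPM in knockout libraries, and 3 of the 5 rose. Sums of the 7 Leydig cell markers (794 to 911 CPM in control, 165 to 288 CPM in knockout libraries) and of the 10 macrophage markers (124 to 137 CPM and 75.6 to 92.9 CPM) were lower in the knockout. Mrc1, which was not called, made up 48.9% to 89.2% of the macrophage sum, and without it the sums were 54.5 to 70.1 CPM in control and 9.76 to 12.3 CPM in knockout libraries, with 6 of 8 tested macrophage markers lower. Without Star, the Leydig cell markers summed to 298 to 344 CPM in control and 27.4 to 31.8 CPM in knockout libraries. The 8 endothelial markers summed to 116 to 122 CPM in control and 64.1 to 101 CPM in knockout libraries, with 1 higher and 2 lower among 4 tested. Cdh5, which fell, made up 64.9% to 93.0% of that sum, and without it the sums were 8.20 to 13.3 CPM in control libraries and 8.96, 8.27 and 35.6 CPM in knockout replicates 1, 2 and 3, where Kdr was at 485 normalized counts (62.5, 99.7 and 69.2 in control). The stromal markers summed to 3613 to 4497 CPM in control libraries and to 2197 and 2182 CPM in knockout replicates 1 and 2 and 4100.4 CPM in replicate 3, and the spermatid markers to 7.49 to 8.23 CPM in control and 6.97 to 7.84 CPM in knockout libraries. The part of these shifts in the results below was not tested, and in bulk RNA a change in the share of a cell type and a change in RNA per cell cannot be told apart.

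The genes as a set stood higher in the knockout. Of the 48 genes, 38 rose at an adjusted p under 0.05 (edgeR's quasi-likelihood test, Benjamini-Hochberg over 14919 tested genes), against 18.2% of all tested genes called higher. None fell by edgeR, by DESeq2 or by limma-voom, and 0 of 48 were lower even at an unadjusted p under 0.05, against 17.1% of all tested genes called lower. The log2 fold change of knockout over control was above 0 for 48 of 48 genes, with a median of 0.72, from 0.02 for Orc4 to 1.49 for Cdc6, while the median over all tested genes was 0.00. All 3 knockout libraries lay above all 3 control libraries for 42 genes (87.5%), against 26.3% of all tested genes. With the thresholds of the study (an adjusted p under 0.05 with at least 1 on the log2 scale), 11 genes were higher, against 5.44% of all tested genes. These were Cdc6, Prim1, Pole, Mcm10, Mcm2, Rrm2, Mcm5, Cdc7, Pola1, Chaf1a and Lig1. Without knockout replicate 3, 6 of them were past both thresholds, namely Pole (1.26 on the log2 scale), Prim1 (1.26), Cdc6 (1.21), Mcm2 (1.10), Mcm10 (1.06) and Rrm2 (1.02). When tested against a log2 fold change of 1, 0 of the 48 genes were called higher.

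**Figure D1:**
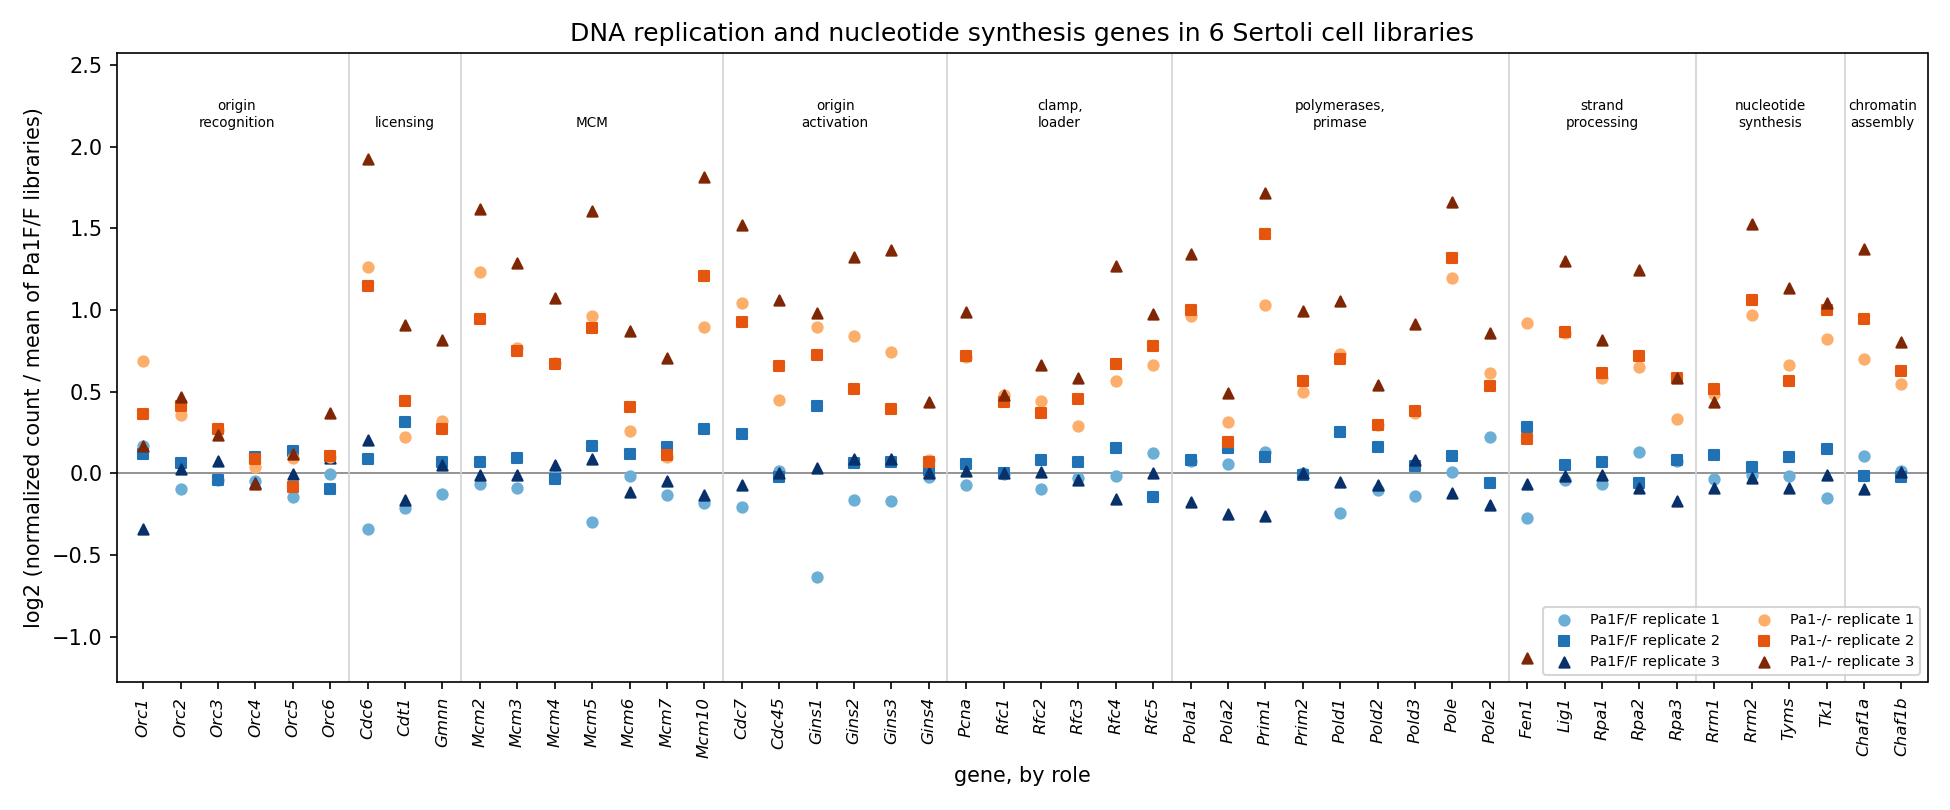
Level of each of the 48 genes in each library, as the log2 ratio of its TMM-normalized count to the mean of the 3 Pa1F/F libraries (y axis), with genes on the x axis in order of their role. Pa1F/F libraries are blue and Pa1-/- libraries orange to brown, with 1 point per library, and in 42 genes all Pa1-/- points lie above all Pa1F/F points, with replicate 3 the highest library in 41 genes.

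Origin recognition was the role with the lowest median change. ORC is the 6-subunit complex that binds origins, and over its 6 genes the log2 fold change had a median of 0.23, with 2 genes called higher. Orc2 had 429.5, 478 and 468 normalized counts (counts scaled by TMM to a common library size) in control replicates 1, 2 and 3 and 588, 611 and 635 in knockout replicates 1, 2 and 3. All 3 knockout libraries of Orc2 lay above the control libraries, and its log2 fold change was 0.41 ± 0.08 (SE, n = 3 per group; edgeR, adjusted p = 0.00688). Orc3 rose less, from 649, 648 and 704 normalized counts in control to 800.4, 804 and 785 in knockout libraries (log2 fold change 0.26 ± 0.06, edgeR, adjusted p = 0.0223), a call that was lost in 4 of 6 fits that left out 1 library, with adjusted p up to 0.0840 without control replicate 1. Orc4 had 693, 769 and 689 normalized counts in control and 737, 763 and 685 in knockout libraries, and Orc5 had 256, 311 and 282 in control and 302, 267 and 308 in knockout libraries. In both genes the groups overlapped, and their log2 fold changes of 0.02 ± 0.08 and 0.05 ± 0.11 had adjusted p-values of 0.844 and 0.775 (edgeR). Orc6 had 485, 454 and 517 normalized counts in control and 520.3, 522 and 627 in knockout libraries, with knockout replicates 1 and 2 just above the highest control library (log2 fold change 0.20 ± 0.10, edgeR, adjusted p = 0.177). Orc1, the largest subunit, had the fewest counts of the complex, with 55.3, 53.3 and 38.8 normalized counts in control and 79.1, 63.1 and 55.1 in knockout libraries. Its groups overlapped, and its log2 fold change was 0.42 ± 0.22 (edgeR, adjusted p = 0.189). Exons of Orc2, Orc3 and Orc4 share 20.7%, 33.7% and 27.0% of their bases with other listed genes in GENCODE vM39, and the effect of this was not tested. In the positions deposited with the counts, however, the span of Orc3 overlaps no other listed gene.

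Of the 3 genes that set or block origin licensing, Cdc6 rose and had the largest change of the 48 genes. Cdc6 (chr11:98907801-98923940, GRCm38), which loads the helicase together with ORC, had 69.8, 93.9 and 102 normalized counts in control and 213, 196 and 336 in knockout libraries. The lowest knockout library was above the highest control library, replicate 3 was the highest, and the log2 fold change was 1.49 ± 0.25 (a fold of 2.81; edgeR, adjusted p = 0.00493). Its partner Cdt1 had 155, 224 and 160.5 normalized counts in control and 209.9, 244 and 337 in knockout libraries. Control replicate 2 lay above knockout replicate 1 for Cdt1, and the log2 fold change of 0.55 ± 0.22 did not pass the test (edgeR, adjusted p = 0.0943). Gmnn, which encodes geminin, the inhibitor that binds CDT1, had 287, 328 and 324 normalized counts in control and 391, 379 and 551 in knockout libraries. Its groups did not overlap, and its log2 fold change of 0.49 ± 0.16 lay just outside the threshold (edgeR, adjusted p = 0.0518). It passed with DESeq2's Wald test (adjusted p = 0.0278), and in edgeR without knockout replicate 3 (0.0377) or without knockout replicate 2 (0.0467).

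Of the 7 MCM genes, 6 rose. Mcm2 to Mcm7 encode the 6 subunits of the helicase ring, and Mcm10 a separate factor that acts when the helicase starts. Mcm10 rose most, from 118, 161 and 122 normalized counts in control to 248, 309 and 469 in knockout libraries (log2 fold change 1.36 ± 0.26, edgeR, adjusted p = 0.00757). The knockout libraries of Mcm10 differed among themselves, and replicate 3 was 1.68 times the mean of replicates 1 and 2. In the ring, Mcm2 (chr6:88883474-88898780, GRCm38) had 389.6, 427 and 405 normalized counts in control and 959, 783 and 1250.5 in knockout libraries, with a log2 fold change of 1.29 ± 0.17 (edgeR, adjusted p = 0.00189). Mcm5, whose promoter stretch is shown above, had 280.0, 387 and 366 normalized counts in control and 673, 639 and 1048 in knockout libraries (log2 fold change 1.19 ± 0.22, edgeR, adjusted p = 0.00699). The knockout libraries of both genes were clear of the control libraries. Mcm3 and Mcm4 rose by 0.96 ± 0.15 and 0.82 ± 0.12 on the log2 scale (edgeR, adjusted p = 0.00428 and 0.00297). Mcm6, also shown above, was the most abundant of the ring per exon length (a control level of 14.4 RPKM, against 3.43 RPKM for Mcm5, the lowest), and had 1134, 1246 and 1061 normalized counts in control and 1371, 1522 and 2095 in knockout libraries. Its log2 fold change was 0.54 ± 0.16 (edgeR, adjusted p = 0.0385), and the call was lost in 4 of 6 fits that left out 1 library, with adjusted p up to 0.123 without control replicate 3. Mcm7 was the ring subunit that was not called, with 508, 622 and 538 normalized counts in control and 595, 602 and 907 in knockout libraries. Only knockout replicate 3 lay above control replicate 2 for Mcm7 (log2 fold change 0.34 ± 0.18, edgeR, adjusted p = 0.191). The span of Mcm7 overlaps Ap4m1 and Cops6 on the other strand, and the strand setting of the counting is not given in the sources used here. Whether the ring subunits differed from each other in their change was not tested.

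**Figure D2:**
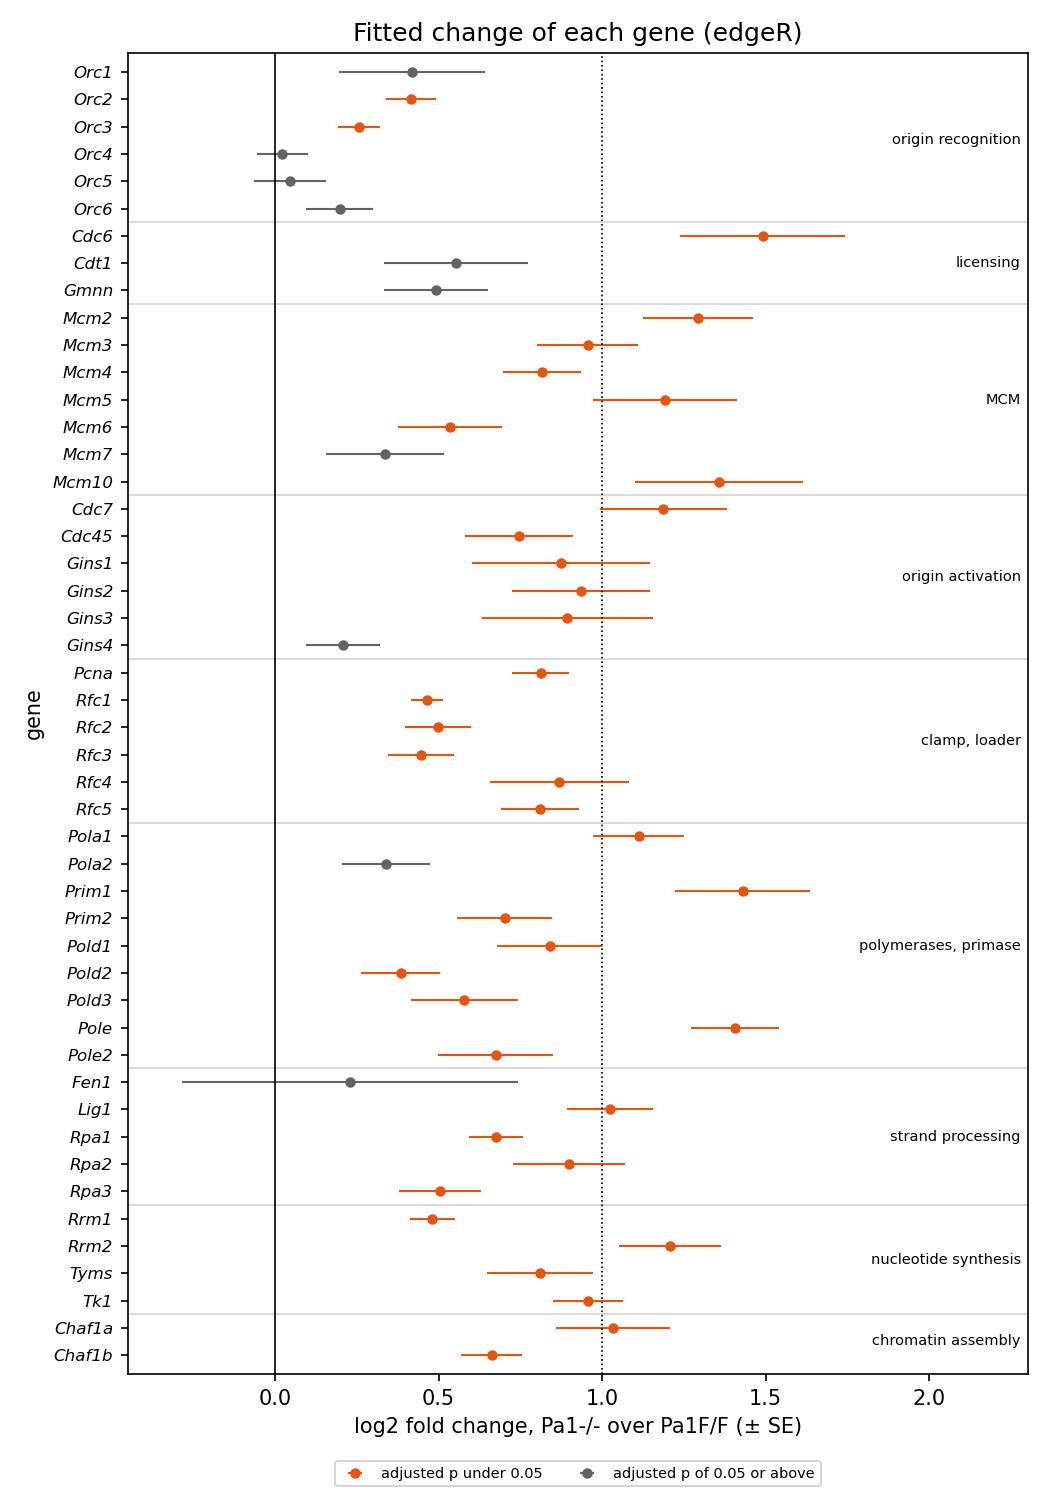
Log2 fold change of Pa1-/- over Pa1F/F for each of the 48 genes (x axis, edgeR, 3 libraries per group), with bars of ± 1 SE and genes in order of their role on the y axis. Orange points mark the 38 genes with an adjusted p under 0.05 and grey points the 10 without, the solid line is at 0 and the dotted line at 1, and all 48 points lie to the right of 0.

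Of the 6 origin activation genes, 5 rose. Cdc7, the kinase that phosphorylates the MCM ring, had 129, 175 and 142 normalized counts in control and 306, 283 and 426 in knockout libraries. Every knockout library was above every control library, with a log2 fold change of 1.19 ± 0.19 (edgeR, adjusted p = 0.00450). Cdc45, which joins the ring with GINS, had 165, 161 and 164 normalized counts in control and 223, 257 and 341 in knockout libraries. It rose by 0.74 ± 0.17 on the log2 scale (edgeR, adjusted p = 0.0139), with adjusted p up to 0.0505 without control replicate 3 and above the threshold also without control replicate 1. The GINS complex has 4 subunits, and Gins1, Gins2 and Gins3 rose by 0.87 ± 0.27, 0.94 ± 0.21 and 0.89 ± 0.26 (edgeR, adjusted p = 0.0447, 0.0149 and 0.0366). These were among the less firm calls. Gins1 had 29.0, 60.0 and 46.1 normalized counts in control and 83.9, 74.4 and 89.2 in knockout libraries and lost its call in 5 of 6 fits without 1 library (adjusted p up to 0.113, without control replicate 3), Gins3 in 4 (up to 0.117, without control replicate 1) and Gins2 in 1 (0.0601, without control replicate 1). Gins4, the remaining subunit, had 468, 482 and 476 normalized counts in control and 504, 499 and 643 in knockout libraries. Its groups did not overlap but knockout replicates 1 and 2 were close to the control libraries, and its log2 fold change of 0.21 ± 0.11 was not called (edgeR, adjusted p = 0.197). Exons of Gins2 share 67.3% of their bases with other listed genes (GENCODE vM39), its span overlaps Gse1 on the other strand, and the effect of this on its counts was not tested.

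All 6 genes of the sliding clamp and its loader rose. Pcna (chr2:132249162-132253314, GRCm38), the clamp, is commonly used as a marker of proliferating cells. By GENCODE vM39 exon length its level was the highest of the 48 genes in both groups (means of 30.3 RPKM in control and 53.2 RPKM in knockout libraries). That rank rests on the lengths used, 2400 bases for Pcna and 11762 for Rrm1, which had more normalized counts than Pcna. Pcna had 1019, 1112 and 1080.3 normalized counts in control and 1752, 1765 and 2119 in knockout libraries. The gap between the groups was wider than the range within either, and the log2 fold change was 0.81 ± 0.09 (edgeR, adjusted p = 0.000969). The loader RFC has 5 subunits, with log2 fold changes from 0.45 ± 0.10 for Rfc3 to 0.87 ± 0.21 for Rfc4. Rfc1, the large subunit, had the tightest values, 1010.4, 1016 and 1014 normalized counts in control and 1412, 1373 and 1414 in knockout libraries. Here knockout replicate 3 did not stand apart (1.02 times the mean of replicates 1 and 2), and the log2 fold change was 0.47 ± 0.05 (edgeR, adjusted p = 0.000877). Rfc4 had 101, 114 and 92.3 normalized counts in control and 152, 163 and 247 in knockout libraries, with replicate 3 1.57 times the mean of the other two knockout libraries. Rfc3 had 281, 301 and 279 normalized counts in control and 350.4, 393 and 429.8 in knockout libraries, and its groups did not overlap. The calls of Rfc3 and Rfc4 (edgeR, adjusted p = 0.0155 and 0.0199) were lost without control replicate 1 or without control replicate 3, with adjusted p up to 0.0595 and 0.0734. Rfc2 and Rfc5 rose by 0.50 ± 0.10 and 0.81 ± 0.12 (edgeR, adjusted p = 0.00981 and 0.00307). Exons of Rfc5 share 41.4% of their bases with other listed genes in GENCODE vM39 and its span overlaps Wsb2 on the other strand, those of Rfc2 share 24.3% and its span overlaps Lat2 on the other strand, and those of Pcna share 20.8%. The effect of this on their counts was not tested. In the positions deposited with the counts, however, the span of Pcna overlaps no other listed gene.

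Of the 9 polymerase and primase genes, 8 rose, and in polymerases α, δ and ε and in the primase the catalytic subunit had the highest fitted change among the subunits in the set. Pole (chr5:110286306-110337474, GRCm38), the catalytic subunit of the polymerase ε that copies the leading strand, had 384, 411 and 351 normalized counts in control and 878, 953 and 1210.4 in knockout libraries. Its lowest knockout library was above 2 times the control mean, and its log2 fold change was 1.41 ± 0.14 (a fold of 2.65; edgeR, adjusted p = 0.000657, the lowest of the 48 genes). Its partner Pole2 rose by 0.67 ± 0.18 (edgeR, adjusted p = 0.0245), a call lost in 3 of 6 fits without 1 library (up to 0.0884, without control replicate 3). Prim1, the catalytic primase subunit that lays down the RNA primer, had 109, 107 and 82.9 normalized counts in control and 203, 275 and 327 in knockout libraries (log2 fold change 1.43 ± 0.21, edgeR, adjusted p = 0.00277). Its lowest knockout library was well above its highest control library. The other primase subunit, Prim2, rose by 0.70 ± 0.15 (edgeR, adjusted p = 0.0107). Pola1, the catalytic subunit of polymerase α, whose promoter stretch is shown above, had 189, 191 and 159 normalized counts in control and 350.4, 359 and 457 in knockout libraries (log2 fold change 1.11 ± 0.14, edgeR, adjusted p = 0.00172). Pola2, its accessory subunit, was not called, with 326, 349.5 and 264 normalized counts in control and 389, 358 and 441 in knockout libraries (log2 fold change 0.34 ± 0.13, edgeR, adjusted p = 0.0929). The groups of Pola2 did not overlap, and the nearest libraries of the groups were control replicate 2 and knockout replicate 2. In polymerase δ, which copies the lagging strand, catalytic Pold1 rose by 0.84 ± 0.16 and the accessory Pold3 and Pold2 by 0.58 ± 0.16 and 0.38 ± 0.12 (edgeR, adjusted p = 0.00787, 0.0327 and 0.0456). Pold2 had 216, 259 and 220.2 normalized counts in control and 285, 285 and 338 in knockout libraries. It lost its call in 5 of 6 fits without 1 library (up to 0.136, without control replicate 3) and Pold3 in 3 (up to 0.108, without control replicate 1). The order of subunits within a complex is a description, and the differences between subunits were not tested.

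Of the 5 genes that coat the exposed template or process and join the new strand, 4 rose. Lig1, the ligase that seals Okazaki fragments, had 530.1, 566 and 540.1 normalized counts in control and 989.8, 994 and 1345 in knockout libraries. Its control libraries lay close together and every knockout library was above them (log2 fold change 1.02 ± 0.13, edgeR, adjusted p = 0.00178). The RPA subunits, which coat the exposed strand, rose by 0.67 ± 0.08 for Rpa1, 0.90 ± 0.17 for Rpa2 and 0.50 ± 0.13 for Rpa3 (edgeR, adjusted p = 0.00156, 0.00791 and 0.0216). Rpa3 had 167, 168 and 141 normalized counts in control and 199, 238 and 237 in knockout libraries, and its call was lost in 3 of 6 fits without 1 library (up to 0.0743, without control replicate 3). Fen1, the nuclease that trims Okazaki fragments, could hardly be measured. It had 8, 11 and 8 raw counts in control and 17, 9 and 4 in knockout libraries, the groups overlapped, and its log2 fold change of 0.23 ± 0.51 had the largest SE of the 48 genes (edgeR, adjusted p = 0.758). Fen1 (chr19:10199132-10204169, GRCm38) overlaps Gm10143 and Tmem258 on the other strand, and 65.9% of its exon bases are shared with other listed genes in GENCODE vM39. The part of this overlap in its low counts was not tested.

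All 4 genes of deoxyribonucleotide synthesis rose. Ribonucleotide reductase, which makes deoxyribonucleotides from ribonucleotides, pairs the large subunit Rrm1 with the small subunit Rrm2, whose amount is known to follow S phase. Rrm2 (chr12:24708241-24714146, GRCm38) had 255, 263 and 252 normalized counts in control and 502, 536 and 740.5 in knockout libraries. The control libraries of Rrm2 hardly differed, all knockout libraries were above them, and the log2 fold change was 1.21 ± 0.16 (edgeR, adjusted p = 0.00186). Rrm1 was far more abundant in normalized counts, 4804, 5305 and 4618 in control and 6884, 7018 and 6642 in knockout libraries. It was among the few genes in which knockout replicate 3 was the lowest knockout library, and its log2 fold change was 0.48 ± 0.07 (edgeR, adjusted p = 0.00279). Per exon length the control level of Rrm1 was 28.4 RPKM against 5.26 RPKM for Rrm2, and the knockout levels were 39.6 and 12.1 RPKM. Tyms, the synthase that makes thymidylate, rose by 0.81 ± 0.16, and Tk1, the kinase that salvages thymidine, by 0.96 ± 0.11 (edgeR, adjusted p = 0.00928 and 0.00110). Tk1 had 296, 365 and 327 normalized counts in control and 582, 658 and 678 in knockout libraries, with all 3 knockout libraries close together.

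Chaf1a and Chaf1b, which encode subunits of CAF-1, the chaperone that places histones on new DNA, both rose. Chaf1a, the large subunit, had 293, 269 and 255 normalized counts in control and 443, 524 and 705 in knockout libraries (log2 fold change 1.03 ± 0.18, edgeR, adjusted p = 0.00501). Chaf1b had 277, 270.1 and 277 normalized counts in control and 401, 425 and 479 in knockout libraries (log2 fold change 0.66 ± 0.09, edgeR, adjusted p = 0.00265). The remaining subunit gene, Rbbp4, which is not among the 48 and whose product also acts in other chromatin complexes, was not called (log2 fold change 0.18 ± 0.08, edgeR, adjusted p = 0.107). In Chaf1a and Chaf1b the lowest knockout library was more than 100 normalized counts above the highest control library. Exons of Chaf1a share 51.0% of their bases with other listed genes in GENCODE vM39, and the effect of this was not tested.

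The knockout libraries were not alike for these genes. Replicate 3 was the highest of the 6 libraries for 41 of 48 genes, against 24.2% of all tested genes, and its level was a median of 1.30 times the mean of knockout replicates 1 and 2. Relative to the control mean, the median ratio over the 48 genes was 1.55 in knockout replicate 1, 1.49 in replicate 2 and 1.97 in replicate 3. Averaged over the genes, the log2 level relative to control was 0.61 in both knockout replicates 1 and 2 and 0.93 in replicate 3, while the control libraries lay at -0.06, 0.09 and -0.04. Replicates 1 and 2 alone were both above all control libraries for 43 of 48 genes, against 33.5% of all tested genes. Without replicate 3 the median log2 fold change was 0.59 and 37 of 48 genes were higher (edgeR), against 21.9% of all tested genes in that fit. The genes whose change shrank most without replicate 3 included Gins3, from 0.89 to 0.58, and Cdc6, from 1.49 to 1.21, while Rrm1 went from 0.48 to 0.50 and Fen1 from 0.23 to 0.62.

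**Figure D3:**
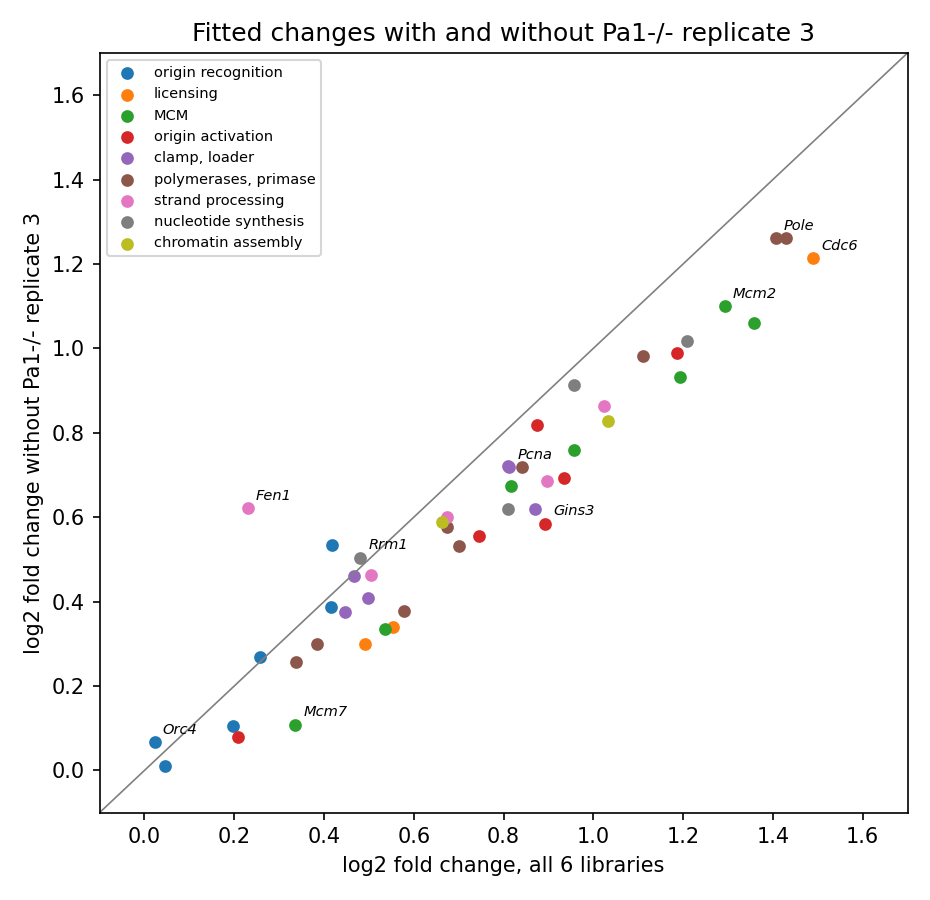
Log2 fold change of each of the 48 genes fitted with all 6 libraries (x axis) and without Pa1-/- replicate 3 (y axis), coloured by role, with some genes named and a line where both are equal. Most points lie below the line, the median moves from 0.72 to 0.59, and Fen1 and Rrm1 are among the points above it.

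Which calls rest on single libraries can be read from the fits that left each out in turn. Of the 38 genes called higher, 26 remained called in all 6 such fits, and 12 lost the call in at least 1 of them. The 12 were Orc3, Mcm6, Cdc45, Gins1, Gins2, Gins3, Rfc3, Rfc4, Pold2, Pold3, Pole2 and Rpa3, and 27 to 37 genes were called in each fit, with the lowest counts without control replicate 1 (27, against 11.6% of all tested genes) and control replicate 3 (28, against 11.5%). The highest was without knockout replicate 3 (37, against 21.9%). When each pair of close libraries was summed, which left 2 libraries per group, 15 genes were called, against 4.43% of all tested genes. These 15 were called in every fit that was run other than testing against a log2 change of 1, and were Cdc6, Chaf1a, Chaf1b, Lig1, Mcm2, Mcm4, Pcna, Pola1, Pole, Prim1, Rfc1, Rfc5, Rpa1, Rrm2 and Tk1.

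Other genes of replication, chosen as a separate list of fork and origin factors that are not among the 48, were also mostly higher. Of 38 genes, 25 rose and 2 fell, against 18.2% of all tested genes higher and 17.1% lower, with a median log2 fold change of 0.75. With the close libraries summed, 11 were called higher, against 4.43% of all tested genes. Among the highest were Pclaf, a PCNA-binding factor (2.09 ± 0.21, adjusted p = 0.000732), Fam111a, a PCNA-binding protease (1.84 ± 0.12, adjusted p = 0.000178), Clspn, a checkpoint adaptor of the fork (1.34 ± 0.18, adjusted p = 0.00232), and Wdhd1, which links the helicase to polymerase α (1.26 ± 0.22, adjusted p = 0.00566), all by edgeR. The 2 that fell were Top1, the topoisomerase that relaxes DNA ahead of the fork (-0.27 ± 0.05, adjusted p = 0.00739), and Rnaseh2a, the catalytic subunit of RNase H2 (-0.37 ± 0.08, adjusted p = 0.0135). Pole3, Pole4 and Pold4, small polymerase subunits outside the 48, were named after their values were seen, and differences between them were not tested. Pole4 rose by 0.67 ± 0.07 (edgeR, adjusted p = 0.000969), whereas Pole3 was at 0.10 ± 0.08 (adjusted p = 0.376) and Pold4 at -0.49 ± 0.19 (adjusted p = 0.0890). Dbf4, the activator of the CDC7 kinase, was at 0.31 ± 0.19 (adjusted p = 0.247).

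Nucleotide metabolism beyond the 4 synthesis genes was mixed. Of 38 other genes, 11 rose and 3 fell, against 18.2% of all tested genes higher and 17.1% lower. Their median log2 fold change was 0.21, beside 0.88 for the 4. With the close libraries summed, 3 were called higher, against 4.43% of all tested genes. Among those that rose most were the salvage kinase Dck (1.37 ± 0.12, adjusted p = 0.000507), the dUTPase Dut (1.05 ± 0.18, adjusted p = 0.00523), the CTP synthase Ctps (0.99 ± 0.11, adjusted p = 0.00118) and the purine salvage enzyme Hprt (0.47 ± 0.08, adjusted p = 0.00569), all by edgeR. The 3 that fell were the related CTP synthase Ctps2 (-0.69 ± 0.14, adjusted p = 0.00930), the nucleoside transporter Slc29a1 (-0.62 ± 0.15, adjusted p = 0.0207) and Adss of AMP synthesis (-0.23 ± 0.07, adjusted p = 0.0421). Rrm2b, the small reductase subunit used outside S phase, was at 0.25 ± 0.11 (adjusted p = 0.130), and Cad, which opens pyrimidine synthesis, at 0.03 ± 0.09 (adjusted p = 0.8). Knockout replicate 3 did not stand out here, being the highest library for 6 of 38 genes.

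Regulators of the step from G1 to S moved both ways. Of 29 tested genes (30 listed), 14 rose and 2 fell, against 18.2% of all tested genes higher and 17.1% lower, with a median log2 fold change of 0.23. With the close libraries summed, 6 were called higher, against 4.43% of all tested genes. The repressive E2F members E2f7 (2.72 ± 0.14, adjusted p = 8.84e-05) and E2f8 (1.81 ± 0.14, adjusted p = 0.000315) rose most, followed by the pocket protein Rbl1 (1.61 ± 0.15, adjusted p = 0.000651), the S phase cyclin Ccne2 (1.55 ± 0.17, adjusted p = 0.00106) and the activator E2f2 (1.49 ± 0.17, adjusted p = 0.00119), all by edgeR. E2f7 had 93.3, 75.5 and 88.1 normalized counts in control and 541, 507 and 653 in knockout libraries, and the groups were far apart. Ccnd1, a cyclin that acts in G1, fell from 812, 573 and 875 to 230.4, 231 and 125 normalized counts (log2 fold change -1.95 ± 0.27, edgeR, adjusted p = 0.00237), and the pocket protein Rbl2 fell by 0.33 on the log2 scale (adjusted p = 0.0458). Cdkn1a, which encodes the CDK inhibitor p21, a protein known to bind PCNA, was level in 5 libraries and lower in knockout replicate 3, with 3849, 3827 and 3719 normalized counts in control and 3823, 3809 and 1661 in knockout libraries (edgeR, adjusted p = 0.470). It was named after its values were seen. Without control replicate 1, or without control replicate 3, 9 of these regulators were called higher, against 11.6% and 11.5% of all tested genes.

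Genes of mitosis, the phase that follows replication, were higher as well but with wide spread in both groups. Of 25 genes, 14 rose and 0 fell, against 18.2% of all tested genes higher and 17.1% lower, with a median log2 fold change of 1.05 and 0 lower at an unadjusted p under 0.05 (edgeR). With the close libraries summed, 2 were called higher, against 4.43% of all tested genes. The highest were the proliferation marker Mki67 (1.82 ± 0.23, adjusted p = 0.00173), the topoisomerase Top2a (1.59 ± 0.31, adjusted p = 0.00894), the kinetochore gene Nuf2 (1.47 ± 0.33, adjusted p = 0.0142), and Birc5 (1.37 ± 0.29, adjusted p = 0.0110) and Aurkb (1.33 ± 0.24, adjusted p = 0.00589) of the chromosomal passenger complex. Control replicate 2 was the highest control library for 25 of 25 mitosis genes, at a median of 1.73 times the mean of control replicates 1 and 3, and knockout replicate 3 was the highest library for 25 of 25. For the 48 replication and nucleotide genes, control replicate 2 was the highest control library for 32 of 48, at a median of 1.09 times the other two. The averaged log2 level of the mitosis genes was -0.24, 0.49 and -0.25 in the control and 0.78, 0.79 and 1.58 in the knockout libraries, so control replicate 2 came close to knockout replicates 1 and 2, which was not the case for the replication genes. Without control replicate 1, or without control replicate 3, 7 mitosis genes were called higher, against 11.6% and 11.5% of all tested genes. Without 1 of the other libraries up to 20 were called, in fits with 12.9% to 21.9% of all tested genes higher.

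**Figure D4:**
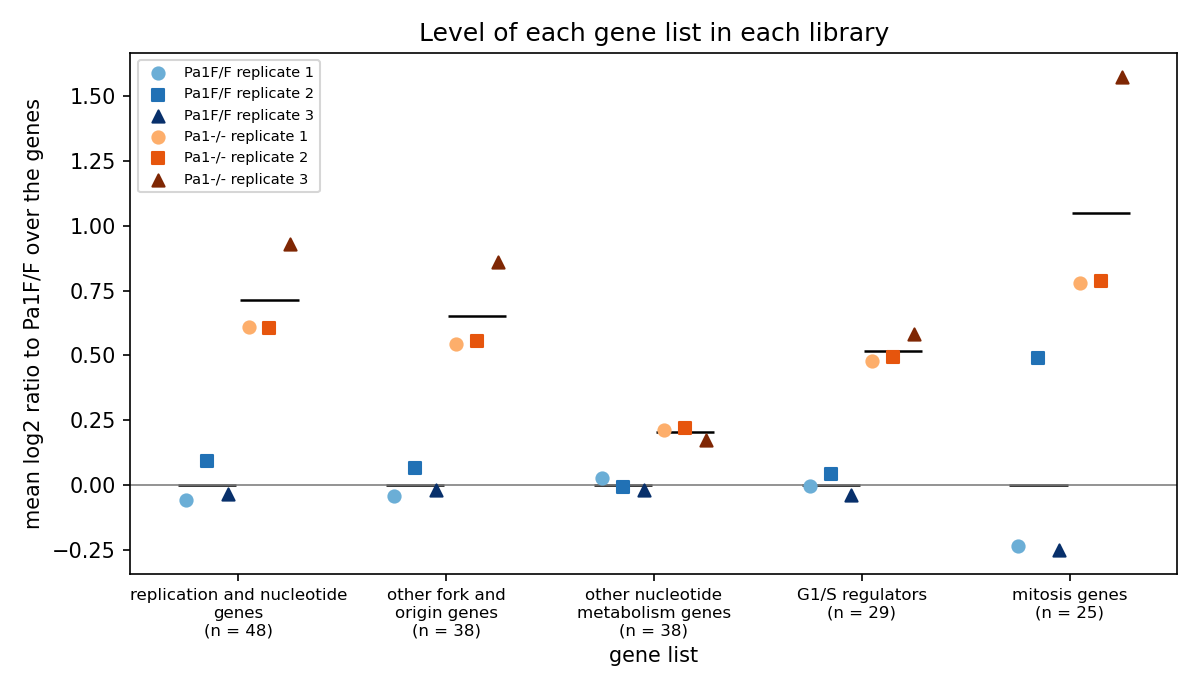
Mean log2 ratio of the tested genes of each list to the mean log2 level of the Pa1F/F libraries (y axis; normalized counts with 0.5 added), for the 48 replication and nucleotide genes and 4 other lists (x axis, n is the number of genes), with 1 point per library and a bar at the mean of each group. The Pa1-/- libraries of the 48 genes lie at 0.61, 0.61 and 0.93, above the control libraries at -0.06 to 0.09, and Pa1F/F replicate 2 stands out in the mitosis genes at 0.49.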

How the data were processed

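Per the submitters' processing notes, HISAT2 2.1.0, HTSeq 0.6.0 and the build GRCm38 were used by the authors, who deposited raw read counts for 28262 genes in 6 libraries. The strand setting is not given in the sources used here. The table also holds the authors' own comparison (mean, fold change, log2 fold change, p-values and calls), which was not used. The 48 genes and the other lists were chosen with earlier results of these data known.

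Counts were filtered with edgeR 4.0.16 (filterByExpr, minimum count 10, minimum total 15), scaled by TMM and tested in R 4.3.3 with its quasi-likelihood F-test, without a block. The Benjamini-Hochberg adjustment ran over 14919 genes. The SE is the absolute log2 fold change divided by the square root of F. Single values allow an exact two-sided permutation p of 0.1 at the least with 3 libraries against 3, so none is given. RPKM used GENCODE vM39 exon lengths, whereas the counts were made on GRCm38. The steps were tested on simulated counts. Reads carry no molecular identifiers, so a floor of 3 counts (0.185 to 0.227 CPM) covers counting error only.

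All 48 genes are named. Values per library are given in each role for the called genes with the highest and lowest change, for all genes past the study's thresholds and for every gene not called. From other lists, up to 5 called genes with the largest change among those averaging 50 or more normalized counts, and called genes against the majority, are named, apart from some that are not reported here, and Pole3, Pole4, Pold4, Dbf4, Rrm2b, Cad and Cdkn1a were named after their values were seen. Alternatives were DESeq2 1.42.0 size factors and Wald test, library size only, limma-voom (limma 3.58.1), other filters, testing against a log2 change of 1, the replicate number as a block, leaving out each library, and summing close libraries.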

Additional observations from a re-analysis of the deposited data

How the results depend on the processing

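Across normalizations, tests and filters, 37 to 39 of the 48 genes were higher and 0 were lower. Of all tested genes, 9.91% to 18.3% were higher and 8.53% to 17.5% lower in these fits, with the lowest shares in the fit without a filter beyond 1 count. Leaving out 1 library gave 27 to 37 higher genes (against 11.5% to 21.9% of all tested genes), 6 to 15 past the study's thresholds, and a median log2 fold change of 0.59 to 0.86. With close libraries summed, the counts of higher genes were 15 of the 48, 11 among the other fork and origin genes, 3 among the other nucleotide genes, 6 among the G1/S regulators and 2 among the mitosis genes. In that fit 4.43% of all tested genes were higher. Past the study's thresholds there were 11 genes, 6 without knockout replicate 3 and 0 when tested against a log2 fold change of 1. Leaving out 1 library gave 17 to 24 other fork and origin genes, 8 to 16 other nucleotide genes, 9 to 15 G1/S regulators and 7 to 20 mitosis genes, against 11.5% to 21.9% of all tested genes. The log2 fold change of Orc4 was -0.0061 with close libraries summed, and -0.0061 without control replicate 3 to 0.074 without control replicate 2. That of Orc5 was -0.017 without control replicate 1 to 0.12 without knockout replicate 2. The cause of these shifts was not tested. Of the libraries with the same replicate number, only control and knockout replicate 1 had a positive correlation of deviations (0.11, against -0.16 and -0.18). The numbers therefore do not pair the libraries throughout. Control replicate 2 deviated with knockout replicate 3 (0.21), and control replicates 1 and 3 with knockout replicates 1 and 2 (0.11 to 0.15), while the remaining pairs across groups were negative. Deviations within a group sum to 0, so these correlations are not independent of each other. With the replicate number as a block, 30 genes were higher, against 12.8% of all tested genes.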
